A study of Mus musculus with 6 samples.

Results

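The genes described here are rodent zinc finger genes named Zfp900 to Zfp999, together with Zfp600, Zfp534 and Rex2, which lie among many of them on mouse chromosome 4. Membership was set by gene name, proposed with earlier results of these data known, and the names found began at Zfp930. The single-oocyte table listed 67 of them among 54658 genes, and the table of oocyte pools listed 58 among 14165 genes, all 58 of which were also in the first table. In CPM, a gene's counts scaled to a common library total, the other 9 members were under 0.284 in young oocytes.

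The study measured polyadenylated RNA of mouse oocytes in metaphase II (MII), where ovulated eggs pause until fertilisation, by Smart-seq2, which amplifies full-length cDNA by PCR. Of its 6 samples, 4 were pools of 10 oocytes from young mice, 2 of them given control short interfering RNA (siCtrl) and 2 given short interfering RNA against Plat (siPlat), the gene of tissue-type plasminogen activator. The other 2 samples were 35 single oocytes from young mice and 59 single oocytes from aged mice, with no treatment named and 1 library per oocyte. The labels give no strain, age in weeks, animal or siRNA sequence, so the spread between the 2 pools of a group may be technical, and the p-values measure that spread alone.

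Most proteins of this family pair an array of C2H2 zinc fingers, which read DNA sequence, with a KRAB domain. The KRAB domain binds the corepressor Trim28, which brings in the histone methyltransferase Setdb1 and heterochromatin proteins, and the main known targets of such proteins are retrotransposons. In the mouse these genes occur in clusters that grew by repeated duplication, so that neighbours can be close copies, and mice without the chromosome 4 cluster are known to express retrotransposons that are otherwise silent. Roles of single members are mostly not established, so the members below are grouped by position. For each member the longest protein-coding transcript was read, or the longest of any type where none was protein coding. In its longest open reading frame, 62 of the 67 members had at least 1 C2H2 motif. The median was 11 motifs and the maximum 21 (Zfp974). Zfp957 had none in 567 residues. The others without one (Zfp931, Zfp950, Zfp965 and Zfp972) had frames of only 64 to 113 residues. Zfp939 is annotated as a transcribed unprocessed pseudogene.

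By the GENCODE vM21 annotation of mm10, 19 members lay in 1 cluster on chromosome 4, between 145510759 and 147848366, and 16 of these were in the table of pools. Chromosome 17 held 13 members, chromosome 2 held 11, chromosome 7 held 9, chromosome 8 held 5 and chromosome 13 held 3. Chromosome 5 held 2, and the remaining 5 were single members on chromosomes 6, 9, 10, 14 and 19.

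The start regions of the chromosome 4 genes show how alike these copies are. RefSeq windows of 300 bases, from 250 before to 50 after the annotated start (GRCm38.p6), were found for 57 of the 67 members and 13 of the 19 on chromosome 4. Of the 12 chromosome 4 windows other than that of Zfp979, 10 were at least 70% identical to it, from 76.3% for Zfp984 to 98.6% for Rex2. The windows of Zfp933 (48.3%) and Zfp993 (46.4%) were not. To let them be compared, the 160 bases before the start of 4 genes that were higher in siPlat pools and of Zfp933, which was lower there, are printed 5′ to 3′ on the strand of each gene. Capitals mark the longest block that all 6 higher genes with a window share.
Zfp979 (chr4:147642509-147642668, minus strand): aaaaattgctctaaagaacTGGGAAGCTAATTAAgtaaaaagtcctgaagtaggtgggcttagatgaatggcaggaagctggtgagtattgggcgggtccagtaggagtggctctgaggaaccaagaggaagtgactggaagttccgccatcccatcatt
Rex2 (chr4:147021690-147021849, plus strand): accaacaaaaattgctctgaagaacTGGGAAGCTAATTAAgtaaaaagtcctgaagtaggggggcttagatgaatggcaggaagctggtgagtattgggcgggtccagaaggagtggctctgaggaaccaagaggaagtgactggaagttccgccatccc
Zfp980 (chr4:145670537-145670696, plus strand): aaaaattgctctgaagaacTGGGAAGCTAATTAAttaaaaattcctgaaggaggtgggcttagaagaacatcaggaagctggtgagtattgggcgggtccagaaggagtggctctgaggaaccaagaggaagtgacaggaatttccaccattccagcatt
Zfp984 (chr4:147809789-147809948, minus strand): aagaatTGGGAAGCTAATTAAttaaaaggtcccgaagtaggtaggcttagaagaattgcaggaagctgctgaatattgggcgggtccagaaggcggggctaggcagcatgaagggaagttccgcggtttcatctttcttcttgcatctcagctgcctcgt
Zfp933 (chr4:147848419-147848578, minus strand): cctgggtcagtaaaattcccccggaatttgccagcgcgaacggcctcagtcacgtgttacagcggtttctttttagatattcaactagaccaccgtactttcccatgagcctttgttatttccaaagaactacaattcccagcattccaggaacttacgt

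The shared block, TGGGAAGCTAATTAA, was searched on both strands of all 32851 RefSeq start windows and found in 12 of them (0.0365%). Of these 12 windows, 11 belonged to chromosome 4 members and 1 to Gm13212, another gene of that cluster. The 11 included Zfp981, Zfp982, Zfp985, Zfp987 and Zfp988, which were not called in the pools, so the block was not confined to genes that were higher. The CCAAT box (letters CCAAT, both strands) was present in 11 of the 13 chromosome 4 windows and in 37.4% of all windows, and the GC box (letters GGGCGG, both strands) in 9 of the 13 and in 35.7% of all windows. In Zfp984 a CCAAT match on the opposite strand overlaps the first letters of the block. The block was picked from these genes after their values were known, and such matches describe the letters only.

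The 4 pools held 12142884 to 17475952 counts, and the 94 single oocytes held 2018226 to 11894782. The targeted gene was checked first: Plat was at 441 and 439 CPM in the siCtrl pools and at 51.4 and 39.0 CPM in the siPlat pools (log2 fold change -3.28, SE 0.19, edgeR adjusted p = 6.21e-06). Oocyte markers (Zp1, Zp2, Zp3, Gdf9, Bmp15, Oosp1, Nlrp5 and Mos) summed to 11579 to 14165 CPM in the pools, against 18.9 to 38.6 CPM for 4 of the 9 cumulus and granulosa markers listed in that table, 14.1 to 23.3 CPM for 3 of the 6 stromal markers and 4.08 to 8.41 CPM for 2 of the 6 blood markers. Oosp1 was the largest part of the oocyte marker sum in each pool, at 6551 to 9441 CPM. Cyp19a1 made up most of the cumulus and granulosa sum, and Pecam1 most of the stromal sum. By edgeR, Mos (log2 fold change -1.64), Zp1 (-1.31) and Gdf9 (-0.84) fell in siPlat pools, the other 5 oocyte markers were not called, the median of the 8 was -0.97, and both siPlat pools lay below both siCtrl pools in 7 of the 8. None of the markers with a row was at 0 in all 4 pools, and the others have no row in that table. Among the 59 aged oocytes, 21 had 6.78% to 61.6% of their gene counts on mitochondrially encoded genes, while the other 38 had 0.947% to 2.97% and the young oocytes 0.688% to 1.92%. In those 21 the oocyte markers summed to 668 to 3102 CPM, against 12372 to 22253 CPM in the other aged oocytes. Results on age are therefore given with and without the 21. Blood markers reached 130 CPM among the 21 and 19.0 CPM among the other 38. In young oocytes the oocyte markers summed to 13437 to 22759 CPM. Cumulus and granulosa markers were at 45.9 to 105 CPM there, stromal markers at 97.6 to 230 CPM and blood markers at 4.74 to 21.2 CPM.

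The first comparison asked what depletion of Plat does to the oocyte transcriptome, and here what it does to these genes. Of the zinc finger genes called higher in siPlat pools, 8 of 9 lay in the chromosome 4 cluster, while 33 of the 35 tested members elsewhere were not called. Of the 51 members that passed the expression filter, 9 were called higher and 2 lower by the quasi-likelihood test of edgeR (adjusted p under 0.05), against 3.54% of all 11136 tested genes called, 2.13% higher and 1.41% lower. With library totals in place of TMM scaling the calls over all genes split into 146 higher and 205 lower in place of 237 and 157, the median log2 fold change of all genes moved from -0.03 to -0.13, and the members split into 9 higher and 3 lower. The 9 were Zfp979, Zfp980, Zfp992, Zfp984, Zfp534, Zfp978, Zfp600 and Rex2 on chromosome 4 and Zfp961 on chromosome 8, and the 2 were Zfp933 on chromosome 4 and Zfp951 on chromosome 5. A further 40 were not called, and 7 members (Zfp934, Zfp953, Zfp965, Zfp968, Zfp971, Zfp973 and Zfp983) were too low to be tested. The median log2 fold change of the 51 was 0.05. The 3 called oocyte markers were lower in the same siPlat pools in which the cluster genes were higher, and their part in these results was not tested.

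By position, all 16 cluster members in the table of pools passed the filter. Of these, 8 were called higher and 1 lower (56.2% called), and their median log2 fold change was 1.63. Both siPlat pools lay above both siCtrl pools in 11 of the 16 (23.5% of all tested genes) and below both in 4 (25.8% of all tested genes), and the groups overlapped in Zfp985 alone. Of the 35 tested members elsewhere, 1 was higher, 1 was lower and 33 were not called (5.71% called), with a median of -0.10. Both siPlat pools lay above both siCtrl pools in 4 of these 35 and below both in 12. By edgeR, 11 of the 35 and 14 of the 16 cluster members had an unadjusted p under 0.05, against 2096 of all 11136 tested genes. The other 34 tested genes of that stretch of chromosome 4, with its flanks, held 2 called higher and 1 lower (8.82% called), all 3 of them Pramel genes, a family of germline genes that is also made of close copies. The other 226 tested genes with a Zfp name held 0 called higher and 4 lower (1.77% called; 32 had an unadjusted p under 0.05).

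**Figure D1:**
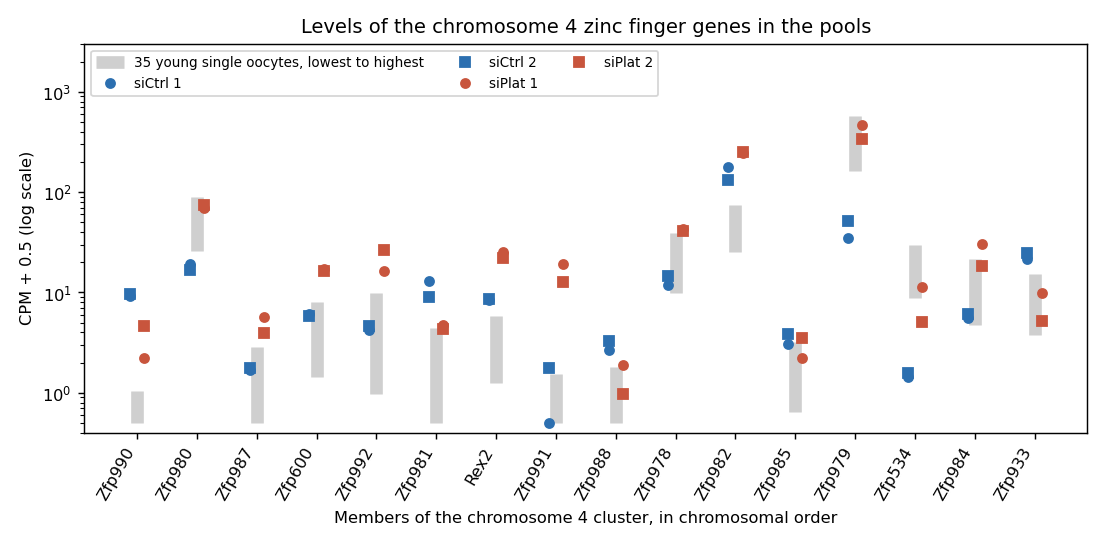
CPM plus 0.5 (log axis) of the 16 members of the chromosome 4 cluster in chromosomal order, with 1 point per siCtrl pool (blue) and siPlat pool (red). Grey bars span the lowest to the highest of the 35 young single oocytes, which come from a separately made table. The red points lie above the blue ones in 11 genes, with the widest gaps at Zfp979 and Zfp991.

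Zfp979 carried the most reads of the genes that rose. It was at 34.3 and 51.6 CPM in siCtrl pools 1 and 2 and at 469 and 340 CPM in siPlat pools 1 and 2, so that both siPlat pools lay far above both siCtrl pools. In a pool, more oocytes with a transcript and more of it per oocyte cannot be told apart. The mean rose from 42.9 ± 12.2 to 404 ± 91.8 CPM (SD, n = 2 pools each), which is 9.43-fold (log2 fold change 3.24, SE 0.24, edgeR adjusted p = 5.9e-05). The gene lies on the minus strand at 147611937 to 147642513, and its longest reading frame held 3 C2H2 motifs.

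Zfp980, towards the other end of the cluster (145670685 to 145704441, plus strand, 13 C2H2 motifs), was at 18.6 and 16.2 CPM in siCtrl and at 68.9 and 73.2 CPM in siPlat. The replicates of each group lay close together, and the log2 fold change was 2.02 (SE 0.20, edgeR adjusted p = 0.000469). Zfp978 (147361303 to 147391004), at 11.5 and 14.0 CPM in siCtrl, was at 42.0 and 40.1 CPM in siPlat (log2 fold change 1.69, SE 0.23, edgeR adjusted p = 0.00309).

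Zfp992, Zfp984 and Zfp534 were lower genes whose siPlat pools differed more from each other. Zfp992 was at 3.70 and 4.10 CPM in siCtrl and at 15.8 and 26.2 CPM in siPlat (log2 fold change 2.43, SE 0.34, edgeR adjusted p = 0.00377). Zfp984 was at 5.10 and 5.58 CPM in siCtrl and at 29.8 and 18.1 CPM in siPlat (2.16, SE 0.32, edgeR adjusted p = 0.00510). Zfp534 was at 0.952 and 1.06 CPM in siCtrl (17 and 15 counts) and at 10.9 and 4.63 CPM in siPlat (2.93, SE 0.53, edgeR adjusted p = 0.0146). In Zfp992 the second siPlat pool was the higher one and in the other pair the first, but no siPlat pool reached down to a siCtrl pool. Without siPlat pool 1, which leaves 1 siPlat library that is assumed to vary like the siCtrl pools, Zfp534 had a log2 fold change of 2.19 and was not called (adjusted p = 0.0610).

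Zfp600 and Rex2 are the closest copies among the genes that rose. Zfp600 was at 5.60 and 5.30 CPM in siCtrl and at 16.5 and 16.0 CPM in siPlat (log2 fold change 1.58, SE 0.29, edgeR adjusted p = 0.0165). Rex2 was at 7.84 and 8.19 CPM in siCtrl and at 25.0 and 21.7 CPM in siPlat (1.54, SE 0.26, edgeR adjusted p = 0.0113). Their fold changes differed by less than 1 SE. With 1 siCtrl pool left out, the remaining one is assumed to vary like the siPlat pools, and calls over all genes fell from 394 to 157 (without pool 1) or 160 (without pool 2). In these fits Zfp600 was not called, at log2 fold changes of 1.62 (adjusted p = 0.0761) and 1.54 (0.0851), nor was Rex2 without pool 1, at 1.51 (0.0608), so the sizes stayed close to those from all 4 pools.

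Of the 7 cluster members that were not called, 3 had a fold change above 0. Zfp991 had 0 and 18 counts in siCtrl (0 and 1.27 CPM) and 18.6 and 12.3 CPM in siPlat. Its fitted log2 fold change of 4.69 (SE 1.10, edgeR adjusted p = 0.110) depends on the prior count. Zfp987 was at 1.18 and 1.27 CPM in siCtrl and at 5.17 and 3.46 CPM in siPlat (1.81, adjusted p = 0.0965). Zfp982 was the member of highest level per kilobase of exon in the pools (135 CPM per kb). It was at 179 and 132 CPM in siCtrl and at 243 and 252 CPM in siPlat (0.67, adjusted p = 0.0711). It was called under 5 of 10 other settings, among them DESeq2 (adjusted p = 0.0139) and limma-voom (0.0387).

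Zfp933, the last gene of the cluster (147822986 to 147848366, minus strand), fell. It was at 20.9 and 24.4 CPM in siCtrl and at 9.48 and 4.71 CPM in siPlat (log2 fold change -1.68, SE 0.34, edgeR adjusted p = 0.0240), and without siCtrl pool 2 it was at -1.56 and not called (0.0790). Its start window was also one of the 2 that were unlike that of Zfp979 and held no shared block. The other 4 cluster members with values below 0 were Zfp990 (-1.59, adjusted p = 0.0735), Zfp981 (-1.40, 0.0556), Zfp988 (-1.42, 0.350) and Zfp985 (-0.33, 0.808). Zfp981, Zfp988 and Zfp985 carry the shared block, so genes with it had values of either sign.

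**Figure D2:**
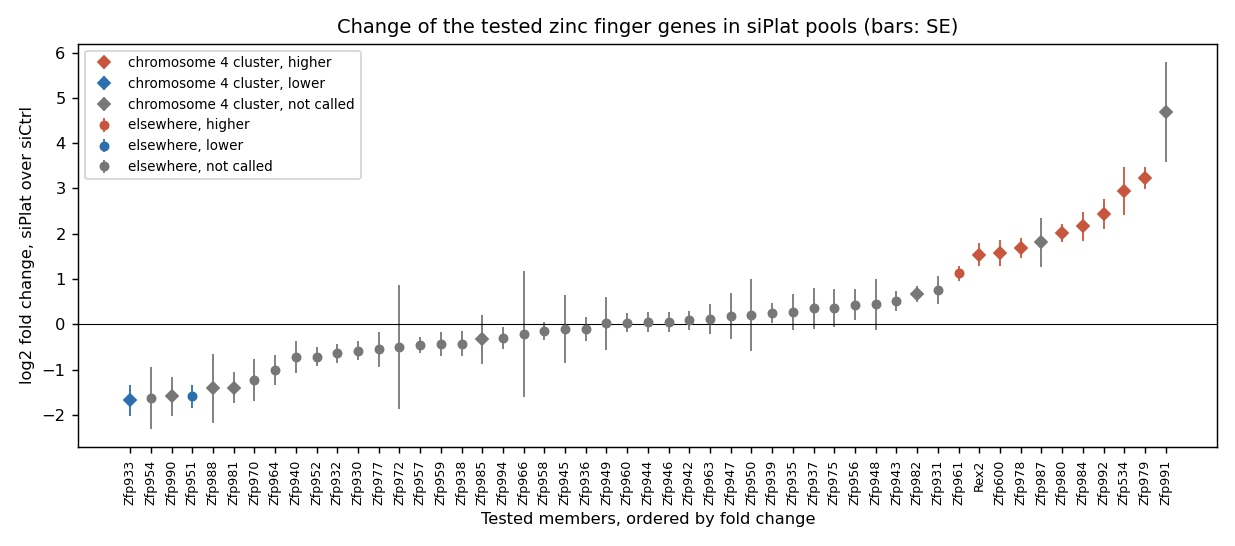
Log2 fold change of siPlat over siCtrl (vertical axis) with its standard error (bars) for the 51 tested members, ordered by fold change. Diamonds are members of the chromosome 4 cluster and circles members elsewhere, coloured by the edgeR call (red higher, blue lower, grey not called). Cluster members sit at both ends, and members elsewhere between -1.62 (Zfp954, not called) and 1.12 (Zfp961).

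Outside chromosome 4, the genes called in either direction were 1 each. Zfp961 (chromosome 8, 71951038 to 71993792) was at 83.4 and 77.9 CPM in siCtrl and at 174 and 178 CPM in siPlat, a rise from 80.7 ± 3.90 to 176 ± 3.16 CPM (log2 fold change 1.12, SE 0.17, 2.18-fold, edgeR adjusted p = 0.00545). The groups were far apart and the replicates close, and without siCtrl pool 2 the log2 fold change was 1.07 with no call (0.0529). Zfp951 (chromosome 5, 104813169 to 104860070) was at 93.7 and 76.4 CPM in siCtrl and at 35.7 and 20.97 CPM in siPlat (log2 fold change -1.59, SE 0.26, edgeR adjusted p = 0.00940). It was called under each of 10 other settings, as were Zfp979, Zfp980, Zfp978, Zfp984 and Zfp992.

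Other members of high level were not called. Zfp958 (chromosome 8) was at 162 and 157 CPM in siCtrl and at 169 and 119 CPM in siPlat (log2 fold change -0.15, edgeR adjusted p = 0.752). Zfp960 (chromosome 17) was at 147 and 117 CPM in siCtrl and at 158 and 114 CPM in siPlat (0.04, 0.950). In both genes the groups overlapped. Zfp957 (chromosome 14) was at 141 and 126 CPM in siCtrl and at 90.5 and 105 CPM in siPlat (-0.45, 0.193). Zfp930 (-0.58, 0.153), Zfp932 (-0.64, 0.122) and Zfp952 (-0.71, 0.0890) also had siPlat pools below both siCtrl pools without passing the test. Of all tested genes, 25.8% lay below in this way. The protein of Zfp932 is known in mouse cells as a repressor of endogenous retroviruses. Zfp942 (0.09, 0.878) and Zfp944 (0.05, 0.940), which lie near each other on chromosome 17, overlapped between groups. Of the 42 members outside the cluster in the table of pools, the 35 tested ones split into 17 with a fold change above 0 and 18 below.

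The family sum followed the cluster. All 58 members together were at 1659 and 1505 CPM in siCtrl and at 2239 and 1911 CPM in siPlat, so both siPlat pools were higher. The mean sum was 1582 ± 109 CPM in siCtrl and 2075 ± 232 CPM in siPlat (SD, n = 2), a log2 ratio of 0.39, given with no test because the genes were chosen with results known. The 16 cluster members summed to 314 and 289 CPM in siCtrl and to 964 and 823 CPM in siPlat, a 2.96-fold ratio of means. The 42 members elsewhere summed to 1345 and 1216 CPM in siCtrl and to 1275 and 1088 CPM in siPlat (log2 ratio -0.12), with overlapping groups. Zfp979 alone made up most of the gap: without it the whole sum had a log2 ratio of 0.12, and the cluster sum, at 280 and 237 CPM in siCtrl and 495 and 484 CPM in siPlat, had one of 0.92.

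**Figure D3:**
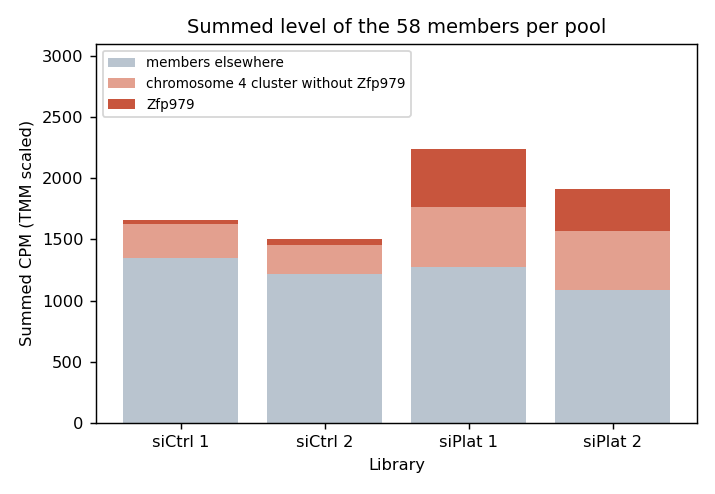
Summed CPM (TMM scaled, axis from 0) of the 58 members in each of the 4 pools, stacked as members elsewhere (grey), cluster members without Zfp979 (light red) and Zfp979 (red). The grey part runs from 1088 to 1345 CPM with no gap between groups, and the red parts are larger in both siPlat pools.

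Near-identical copies limit what a single gene's count means here. The share of 50-base windows found in no other GENCODE gene was counted on the transcript chosen for each member as above. It was 75.4% for Zfp979, 56.3% for Zfp992, 42.6% for Zfp984 and 29.6% for Zfp534. For Zfp980 it was 27.4%, for Zfp978 24.1%, for Zfp600 14.99% and for Rex2 9.71%. Rex2 held 78.0% of the windows of Zfp600, and Zfp600 held 81.7% of those of Rex2. The median was 36.1% over the 16 cluster members in the table of pools and 89.9% over the 42 elsewhere. Close copies also occurred elsewhere: Zfp960 was at 15.5%, with 83.3% of its windows in Zfp97, and Zfp932 was at 54.8%. How reads that matched several genes were counted was not stated, and counts could have been left out for, or split between, such copies. Of the 26 tested members with at least 80% unique windows, 1 was called higher (Zfp961) and 2 lower (Zfp933 and Zfp951), and of the 25 under 80%, 8 were higher and 0 lower. The 8 rises on chromosome 4 are therefore uncertain as to gene, and Zfp979 is the one of them with the most sequence of its own. In windows of 100 bases the unique share was 83.0% for Zfp979, 71.4% for Zfp992, 68.8% for Zfp984 and 59.2% for Zfp534. It was 53.9% for Zfp980, 44.0% for Zfp978, 31.5% for Zfp600 and 23.9% for Rex2. Zfp979 thus passed 80% at this length, so the split at 80% depends on the window length.

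**Figure D4:**
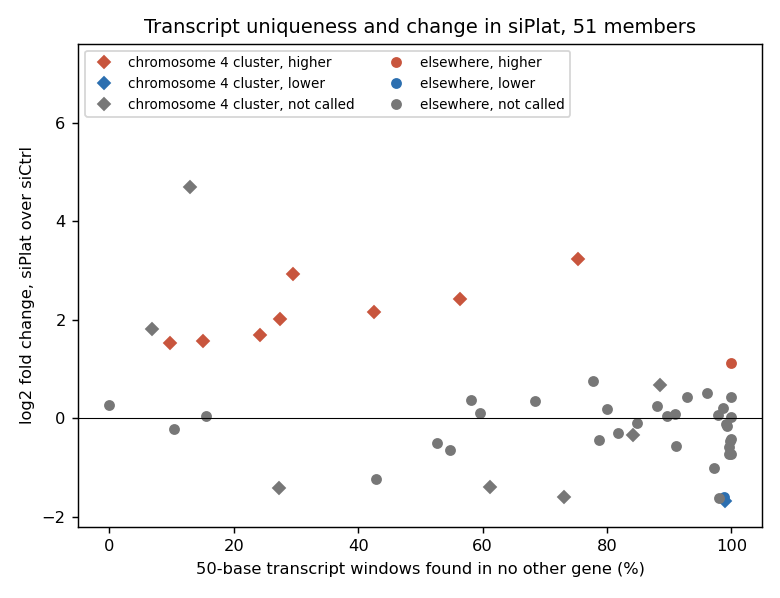
Percent of 50-base transcript windows found in no other gene (horizontal axis) against the log2 fold change of siPlat over siCtrl (vertical axis) for the 51 tested members, with symbols as by position and call in the legend. The 8 cluster genes called higher lie between 9.71% and 75.4%, and the 3 other called genes lie at 98.8% to 100%.

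For the machinery that KRAB zinc finger proteins recruit, of 27 listed corepressor and heterochromatin genes, 25 were tested, and 2 were higher, 0 lower and 23 not called (8% called beside 3.54% of all tested genes, median log2 fold change 0.02). The 2 were genes of heterochromatin proteins that bind methylated histone H3. Cbx1 was at 299 and 312 CPM in siCtrl and at 468 and 482 CPM in siPlat (0.64, SE 0.15, edgeR adjusted p = 0.0412), and Cbx3 was at 5.49 and 11.8 CPM in siCtrl and at 28.9 and 28.3 CPM in siPlat (1.73, SE 0.34, edgeR adjusted p = 0.0223). The related gene Cbx5 was at 56.0 and 55.0 CPM in siCtrl and at 63.7 and 52.5 CPM in siPlat (0.07, edgeR adjusted p = 0.909). It was not called, nor were Trim28 (-0.28, adjusted p = 0.481) and Setdb1 (-0.38, 0.313). Of 20 other KRAB zinc finger genes listed, 13 were tested and 0 were called by edgeR, with 0 at an unadjusted p under 0.05 and a median of -0.26. With 3.54% of all tested genes called, a list of that length would hold few or no calls in any case.

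In young single oocytes the members summed to 1363 CPM (95% Poisson interval 1359 to 1367, for counting error only), or 0.136% of gene counts, and to 1029, 1369 and 1938 CPM in the lowest, median and highest oocyte. The cluster made up 34.1% of that sum. A count in each of the 35 oocytes was found for 34 members, 26 members were under 1 CPM and 5 had 0 counts. Per kilobase of exon, Zfp957 led with 91.1 CPM per kb, followed by Zfp979 (70.4), Zfp961 (43.8), Zfp982 (36.1) and Zfp978 (16.97).

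Pools and single oocytes were tabulated separately, so their levels are set side by side with no test. Levels of a gene can differ widely between them, in either direction. Zfp935 was at 4.14 to 6.36 CPM in the pools and had 0 counts in young and aged single oocytes. Zfp956 was at 5.43 to 8.33 CPM in the pools and at 37.6 CPM in young oocytes. Of the 8 cluster genes called higher, the level in young oocytes was nearer to the siPlat mean for 3 (Zfp979, Zfp980 and Zfp534) and nearer to the siCtrl mean for 5, and over all 16 cluster members the split was 8 and 8 (log2 of CPM plus 1). Zfp979 ran from 161 to 570 CPM over the 35 oocytes (median 274), a range that held both siPlat pools and neither siCtrl pool. Zfp980 ran from 25.7 to 88.8 CPM (median 48.7), with both siPlat pools inside and both siCtrl pools below. Zfp534 ran from 8.40 to 29.5 CPM, with siPlat pool 1 inside and the other 3 pools below. The other 5 were nearer to siCtrl, but not all ranges held only the siCtrl pools. Zfp978 ran from 9.30 to 38.5 CPM, with the siCtrl pools inside and the siPlat pools above. Zfp984 ran from 4.24 to 20.985 CPM, with the siCtrl pools and siPlat pool 2 inside. Zfp600 (0.946 to 7.49 CPM) had the siCtrl pools inside and the siPlat pools above. Rex2 (0.754 to 5.28 CPM) had all 4 pools above its range. Zfp992 was at 3.49 CPM, beside 3.70 and 4.10 in siCtrl and 15.8 and 26.2 in siPlat. Outside the cluster, Zfp961 ran from 130 to 298 CPM with siPlat inside and siCtrl below, and Zfp951 from 5.80 to 19.4 CPM with all 4 pools above. Zfp982 (25.1 to 73.6 CPM) and Zfp958 (12.7 to 31.1 CPM) were below all 4 pools.

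Among young oocytes, 15 of 25 members had a coefficient of variation above the median of genes of like level, and 10 did not. It was 27.2% for Zfp979, 26.1% for Zfp957, 31.0% for Zfp980 and 41.4% for Zfp939, beside medians of 17.2%, 17.2%, 22.8% and 24.3% over genes within 20% of their CPM. Zfp961, at 18.5% beside 17.6%, was close to it, and Zfp534, at 24.1% beside 30.7%, and Zfp932, at 27.5% beside 32.0%, were below it. As a description over the 35 oocytes, Spearman correlations between the 7 cluster members of at least 5 CPM had a median of 0.34 over 21 pairs, with Zfp978 and Zfp982 at 0.70 and Zfp982 and Zfp933 at -0.00. The median was 0.24 over 126 pairs with 1 gene in the cluster and 0.13 over 153 pairs with none. The highest pairs were not within the cluster, with Zfp956 and Zfp957 at 0.80 and Zfp982 and Zfp942 at 0.75. The points share library depth, and close copies can share reads.

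The other question of the study was how age alters the oocyte transcriptome. With 1 sample for each age there was no test, and summed counts are described with a fold rule of 1.5 for genes averaging 5 CPM or more over the ages. With all 59 aged oocytes, 10 of 28 members were at least 1.5-fold higher and 1 (Zfp939) at least 1.5-fold lower, against 9.45% and 9.38% of 8303 genes. The 10 were Zfp930, Zfp932, Zfp936, Zfp940, Zfp946, Zfp947, Zfp951, Zfp958, Zfp978 and Zfp982. Without the 21 aged oocytes of high mitochondrial share, 5 of 27 members were higher (Zfp940, Zfp946, Zfp951, Zfp952 and Zfp958) and 0 lower, against 8.87% and 1.87% of 8413 genes, and the median log2 ratio was 0.11 over members and 0.08 over all genes. Scaled to the ERCC spike-ins, synthetic RNAs added to each lysate, the median log2 ratio of all genes was -1.47, and 0 of 23 members were higher and 18 lower, so the directions given here are relative to the other genes of a library.

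Zfp951 had the largest ratio of the members of at least 5 CPM, both with and without those oocytes. It was at 10.5 CPM in young oocytes (5.80 lowest, 9.53 median, 19.4 highest) and at 43.6 CPM in aged ones. The 38 aged oocytes of low mitochondrial share were at 40.6 CPM, from 22.3 to 73.6 CPM (median 35.8). The lowest of them thus lay above the highest young oocyte. The oocytes of an age are 1 sample, and the share of all genes that separate in this way is not given here. The log2 ratio was 1.95 over all aged oocytes and 1.85 without the 21. The same gene was lower in siPlat pools.

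Zfp958 and Zfp952 were higher in aged oocytes of low mitochondrial share and not in the other 21. Zfp958 was at 20.1 CPM in young oocytes (12.7 to 31.1), at 42.4 CPM in the 38 (26.6 to 75.1) and at 18.4 CPM in the 21, a log2 ratio to young of 1.04 for the 38. Zfp952 was at 25.4 CPM in young oocytes, 43.8 CPM in the 38 and 16.9 CPM in the 21 (0.76 for the 38). The 2 sets of aged oocytes thus differed in their direction from young. Zfp940 (4.40 CPM in young, 7.47 in the 38, 7.81 in the 21) and Zfp946 (12.1, 20.1 and 55.5 CPM) were above young in both.

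The remaining 6 of the 10 had lower ratios or turned sign without the 21 oocytes. Zfp932 was at 15.9 CPM in young oocytes, 21.6 CPM in the 38 and 178 CPM in the 21, so that its log2 ratio fell from 1.94 to 0.42 when they were left out. Zfp982 was at 53.7, 45.8 and 232 CPM in the same order, and its log2 ratio turned from 0.83 to -0.23. Zfp978 was at 21.8, 19.6 and 70.4 CPM, turning from 0.59 to -0.15, and Zfp936 was at 20.2, 22.1 and 76.7 CPM. Zfp930 (14.0, 20.3 and 46.2 CPM) and Zfp947 (3.63, 6.11 and 9.12 CPM) were also highest in the 21, but kept log2 ratios of 0.50 of 0.91 and 0.62 of 0.77 without them, and Zfp947 left the count because its mean fell under 5 CPM. Zfp939 went the opposite way, with 39.1 CPM in young oocytes, 29.1 CPM in the 38 and 7.83 CPM in the 21. The part that the mitochondrial share has in these values was not tested.

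**Figure D5:**
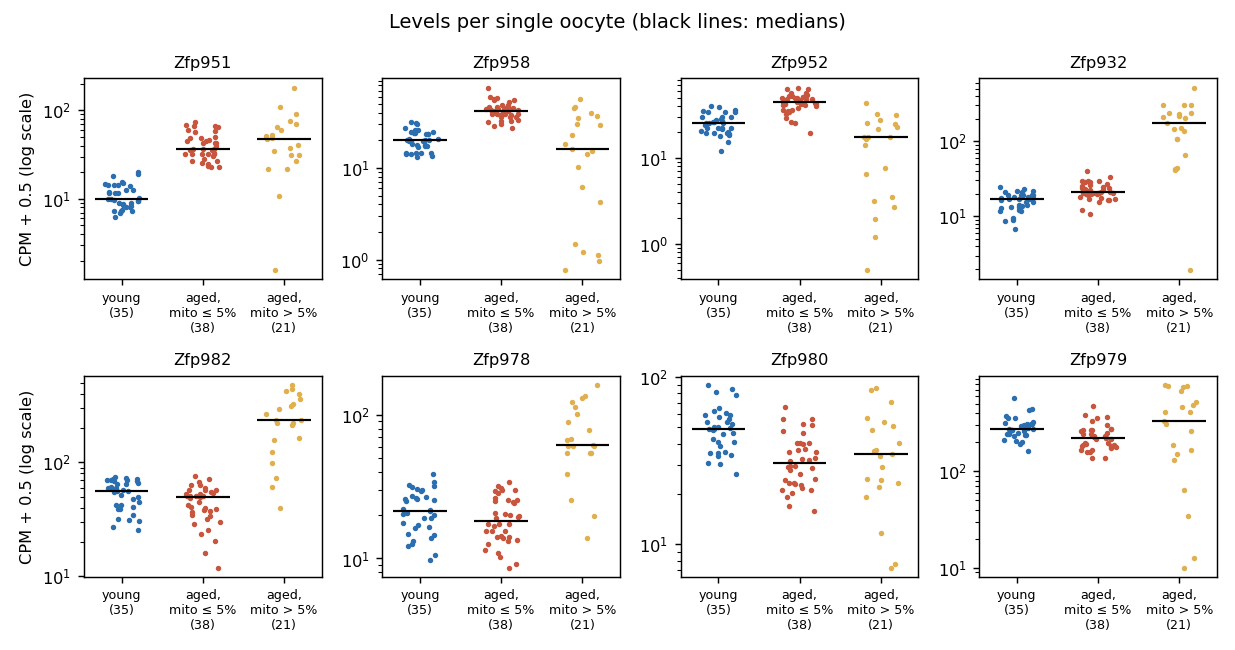
CPM plus 0.5 (log axis) of 8 members in each single oocyte, with 35 young oocytes (blue), 38 aged oocytes of at most 5% mitochondrial share (red) and 21 above it (yellow). Black lines are medians. For Zfp951 the blue and red points do not overlap. The yellow medians stand highest for Zfp951, Zfp932, Zfp982, Zfp978 and Zfp979.

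Without the 21 oocytes, cluster members and most members elsewhere lay on opposite sides of the young level in CPM. All 7 cluster members of at least 5 CPM were lower in aged than in young oocytes (median log2 ratio -0.28). Of such members elsewhere, 17 of 20 lay above young. The median log2 ratio of all 8413 genes was 0.08, so lying above young does not set the members elsewhere apart. Zfp961 (0.06) and Zfp944 (0.10) were near that median, and in the cluster Zfp534 (-0.09) was near 0. Close copies among the 7 cluster members can share reads, so their directions may not be independent. Zfp980 was at 49.3 CPM in young oocytes and 33.2 CPM in the 38 (log2 ratio -0.56), and Zfp979 was at 290 CPM in young oocytes and 237 CPM in the 38 (-0.28). Their ranges over oocytes overlapped widely. The cluster sum was 464 CPM in young oocytes (281 to 827 over oocytes), 377 CPM in the 38 (201 to 631) and 748 CPM in the 21, while the sum of members elsewhere was 899, 1085 and 1139 CPM. Zfp957 (293 CPM in young, 349 CPM in the 38) and Zfp961 (190 and 197 CPM), the other members of high level, were within 1.5-fold of young. The sum of all 67 members was 1577 CPM in aged oocytes, a log2 ratio of 0.21, or 0.10 without the 21.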

How the data were processed

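The authors deposited 2 tables of whole-number counts of reads per gene, not normalised, one for 4 pools and one for 94 single oocytes. STAR 2.7.10b, HTSeq 0.13.5 and build mm10 are named per the submitters' processing notes, with no role given. The annotation, the strand setting and the treatment of reads that match several genes are not given in the sources used here; antisense partners and close copies cannot be told apart.

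Pools were tested with edgeR 4.0.16 (robust quasi-likelihood fit, TMM, filterByExpr with a minimum count of 10 and total of 15, no covariate) over all genes in R 4.3.3, with Benjamini-Hochberg adjustment and a threshold of 0.05. CPM of pools are TMM scaled, and an SE is the absolute log2 fold change over the square root of F. Within each group the pools differed beyond counting error (chi-square per degree of freedom 18.0 for siCtrl and 28.5 for siPlat). Data of this comparison were simulated for 7501 genes with a mean above 5 CPM. In these, edgeR found 56 of 100 genes altered 2-fold, 97 of 100 altered 4-fold and 9 unaltered genes. Genes of lower level, among them Zfp534, were not simulated. Counts of single oocytes were summed per age, without ERCC spike-ins, and log2 ratios used a pseudocount of 1 CPM. PCR reads without molecular identifiers are not independent molecules, so the Poisson intervals (95%) cover counting error only. Exon lengths and transcript windows of 50 and 100 bases came from GENCODE vM21, and start windows from RefSeq GRCm38.p6. A C2H2 motif was searched by its cysteine and histidine spacing in the longest open reading frame, which a script read from the transcript.

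Named with values are all members called in the pools, the 8 highest in the pools and in young oocytes, those at least 1.5-fold different by age, and Zfp600, Zfp534 and Rex2; other members named, such as the uncalled cluster genes, were chosen after their values were seen. The members, the gene lists and the shared block were chosen with earlier results of these data known. Alternatives were other scalings, no filter, DESeq2 1.42.0, limma-voom (limma 3.58.1), leaving out each pool, a replicate block, and for age other totals, averages and oocyte sets.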

Additional observations from a re-analysis of the deposited data

How the results depend on the processing

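The count of 9 members higher in siPlat ranged from 8 to 11 with 1 pool left out and stayed within 1.5 times of 9 under other scalings, no filter, DESeq2 and limma-voom. The count of 2 lower became 4 with no filter, 4 with DESeq2, 3 with library totals and 1 to 6 with 1 pool left out. Over all genes, 394 calls became 581 of 14064 with no filter, 678 with DESeq2, 157 without siCtrl pool 1, 160 without siCtrl pool 2, 713 without siPlat pool 1 and 1145 without siPlat pool 2. An alternative chosen after seeing the data used only members of at least 80% unique 50-base windows. With these, 1 member was higher and the log2 ratio of the family sum was 0.0040. This cut left out Zfp979 (75.4%), which passes it with windows of 100 bases (83.0%). The family sum's ratio of 0.39 was 0.12 without Zfp979, -0.12 without the cluster and 0.27 to 0.50 with 1 pool left out. Replicate numbers did not pair the pools (correlation of deviations -0.098), and with a replicate block 273 genes in all were called, with 9 members higher and 2 lower.

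Of single members, the uncalled ones near 0 changed sign. With library totals these were Zfp942 (-0.0192), Zfp944 (-0.0532) and Zfp960 (-0.0676). With 1 pool left out, Zfp942 ranged from -0.10 to 0.31, Zfp944 from -0.21 to 0.38, Zfp958 from -0.43 to 0.10 and Zfp960 from -0.22 to 0.27. The cause was not tested.

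By age, the family sum's log2 ratio of 0.21 was 0.10 without the 21 high-mitochondrial oocytes, 0.25 as a mean and 0.0338 as a median over oocytes, 0.34 without mitochondrial genes in the totals and -1.27 on ERCC totals, where the median of all genes was -1.47. Members higher in aged oocytes numbered 5 without the 21, 5 by medians and 0 on ERCC totals, and members lower 0, 3 and 18, with 2 by means over oocytes. On ERCC totals the sign turned for Zfp930 (-0.48), Zfp936 (-0.58), Zfp940 (-0.54), Zfp946 (-0.17), Zfp947 (-0.41), Zfp958 (-0.61), Zfp978 (-0.82) and Zfp982 (-0.63), without the 21 for Zfp978 (-0.15) and Zfp982 (-0.23), and by medians for Zfp982 (-0.0549). With 1 sample per age, spread between animals is not measured, and members under 1 CPM were below what this depth resolves between oocytes.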

Other observations

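Members on chromosome 17 include 9 between 21 and 23 Mb in the table of pools, a smaller group of neighbours. Of these, 8 were tested in the pools and 0 were called by edgeR, with 1 at an unadjusted p under 0.05 and a median log2 fold change of 0.07. At 3.54% of all tested genes called, 0 of 8 does not set this group apart. In young oocytes Zfp942 (66.9 CPM, 43.1 to 105.6 over the 35 oocytes) and Zfp944 (40.0 CPM, 22.3 to 67.7) were the highest of this chromosome. On chromosome 6, Zfp956 was at 37.6 CPM in young oocytes, and its lowest oocyte, at 8.37 CPM, lay far below the median of 37.4 CPM. In the pools its log2 fold change was 0.44 and it was not called.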
